A study of Mus musculus with 4 samples.

Results

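The 38 interferon-stimulated genes described here are mouse genes that cells switch on when an interferon binds its receptor. They were taken by name from a list of symbols chosen with earlier results of these data known. All 38 had a row among the 43346 Ensembl genes of the tables. By role they fall into 5 RNA and DNA sensors, 5 members of the 2-5A synthetase (OAS) family, 12 antiviral effectors, 8 genes of the ISG15, ubiquitin and ADP-ribose enzymes, 5 GTPases and 3 nuclear or signalling partners. RNA was measured in 4 libraries of blood cells of adult C57BL6 mice, 2 of monocytes (MON) and 2 of neutrophils (NEU). Monocytes were sorted as Gr-1+Mac-1+ cells from the mononuclear fraction of a Ficoll gradient, while neutrophils were what remained of the gradient's pellet once red cells had been lysed, and the labels name no sort for them. Neither group carries a named allele or treatment, and the study's methods give male mice of 5 to 8 weeks for both. The labels do not say whether the 2 libraries of a cell type came from separate animals, so p-values measure the spread between these libraries, which may be technical.

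Type I and type III interferons signal through the kinases Jak1 and Tyk2 to a complex that holds Stat2 and Irf9 and binds the interferon-stimulated response element (ISRE) at its target genes. Interferon gamma signals through Jak1 and Jak2 to factors that bind the gamma-activated site (GAS). Part of the induced proteins detects viral nucleic acid, part cuts or blocks viral RNA and protein, and part feeds back on the signal. Many interferon-stimulated genes are also transcribed at a low level in leukocytes that have met no virus.

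Gene counts summed to between 20549572 and 26076261 per library. The monocyte pair spread more than the neutrophil pair (46.2% and 14.7% as edgeR's biological coefficient of variation). Over 10 monocyte markers the summed level was 4163 and 4081 CPM (a count scaled to the library's total in genes, as is usual for RNA-seq) in the monocyte libraries and 452 and 450.2 CPM in the neutrophil libraries, with 9 of 10 higher in monocytes. Over 10 neutrophil markers it was 328 and 357 CPM against 7700 and 7879 CPM, with 9 of 10 higher in neutrophils and 1 in monocytes. The 1 higher in monocytes was Retnlg, at 224.4 and 234.8 against 174.0 and 195.3 CPM, which held most of the sum in the monocyte libraries. Ly6g and Camp had no count in either monocyte library. Markers of other blood cells also moved with the groups. All 10 NK cell markers were higher in monocytes (2668 and 2664 against 30.4 and 30.9 CPM), and all 10 B cell markers were higher in neutrophils (382 and 481 against 3198 and 3078 CPM). Of 10 markers of plasmacytoid dendritic cells, which make type I interferon, 4 were higher in neutrophils and 1 in monocytes, with sums of 119 and 126 against 326 and 313 CPM. In the neutrophil libraries most of that sum came from Spib (179.7 and 183.4 CPM) and Tcf4 (112.1 and 97.6 CPM). The defining marker Siglech lay between 0.277 and 1.46 CPM in the 4 libraries, and Klk1 had no count. T cell markers summed to 94.2 and 101 against 209 and 218 CPM (8 of 10 higher in neutrophils, 1 in monocytes), platelet markers to 61.4 and 56.2 against 119 and 134 CPM (6 of 10 higher in neutrophils), and red cell markers to 6423 and 6801 against 8240 and 8811 CPM (4 of 9 higher in neutrophils, 2 in monocytes). Xist had no count in either monocyte library and 235 and 237 CPM in the neutrophil libraries, although 4 Y-linked transcripts had counts in every library, so the sex makeup of the source and the cell type cannot be told apart. The part of these other cells in the results that follow was not tested, and fewer cells of a type and less RNA per cell cannot be told apart in bulk RNA.

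The promoter sequences shown here are examples, chosen after the search among windows that hold the ISRE core: 4 of members higher in neutrophils, 1 of a member not called and 1 of a member higher in monocytes. RefSeq promoters (GRCm38.p6, 250 bases before to 50 after the transcription start) were found for 29 of the 38 members. The ISRE core, searched on both strands as GAAA, any 2 bases and GAAA again, is in capitals. Positions are counted from the start, with negative numbers before it. Isg15, the ubiquitin-like modifier, is shown from -97 to -38 at chr4:156200856-156200915 on the minus strand. Ifit1 and Ifit3, which bind foreign RNA, are shown from -120 to -61 at chr19:34640769-34640828 and from -164 to -105 at chr19:34583365-34583424, both on the plus strand. Oas3 and Oas1a, both 2-5A synthetases of the minus strand, are shown from -100 to -41 at chr5:120777700-120777759 and from -60 to -1 at chr5:120907526-120907585. Bst2 (tetherin), which holds budding virus at the cell surface, is shown from -152 to -93 at chr8:71537565-71537624 on the minus strand.
Isg15: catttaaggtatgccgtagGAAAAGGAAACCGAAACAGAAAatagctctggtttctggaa
Ifit1: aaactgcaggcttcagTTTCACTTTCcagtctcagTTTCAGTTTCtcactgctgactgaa
Ifit3: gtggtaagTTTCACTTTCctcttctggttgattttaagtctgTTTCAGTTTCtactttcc
Oas3: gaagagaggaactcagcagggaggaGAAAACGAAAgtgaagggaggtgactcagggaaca
Oas1a: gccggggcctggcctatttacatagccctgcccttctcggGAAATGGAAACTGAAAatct
Bst2: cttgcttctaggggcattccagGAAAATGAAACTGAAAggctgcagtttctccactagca

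In Isg15 the capitals join 3 overlapping matches, in Oas1a and Bst2 2 overlapping matches each, and in Ifit1 and Ifit3 2 separate matches that read on the opposite strand. Over all promoters, 14 of the 29 members with a window (48.3%, 95% Wilson interval 31.4 to 65.6%) held the ISRE core, beside 1079 of 27025 genes (3.99%). The core was present in 10 of the 20 members with a window that were higher in neutrophils, in both of the 2 that were higher in monocytes (Bst2 and Ifih1) and in 2 of the 6 that were not called (Gbp3 and Oas1a). All 3 sensors and all 3 guanylate-binding proteins with a window held it, as did 4 of 11 effectors, 2 of 4 2-5A synthetases, 2 of 5 genes of the ISG15 and ubiquitin group and 0 of 3 nuclear and signalling partners. The windows of Oasl2 and Oasl1, which had the highest fold changes of the members, did not hold it. The GAS core, searched as TTCNNNGAA, was in 7 of the 29 members (24.1%, 95% Wilson interval 12.2 to 42.1%) and in 9.55% of all genes. In the 250 bases before the start alone, it was in 5 of 29 members (17.2%, interval 7.6 to 34.5%). There the share over all genes, 8.13%, lay within that interval. Bst2, Gbp7 and Oas1a held both cores, and in Bst2 the GAS core (-136 to -128) overlaps the ISRE core (-130 to -115). A match is a description of the letters and does not show that a factor binds there.

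**Figure D1:**
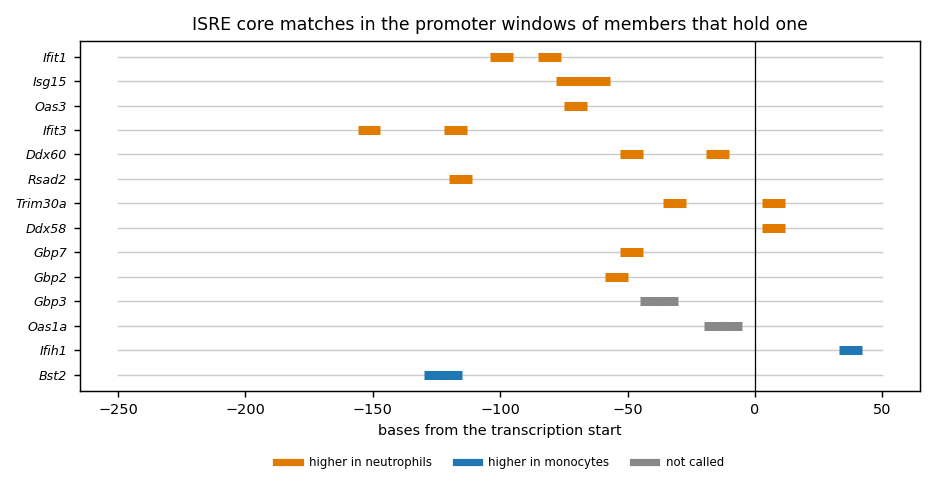
Position of each ISRE core match (thick bars, in bases from the transcription start on the horizontal axis) in the promoter windows (thin lines) of the 14 members that hold one, ordered by fold change and coloured by the direction of the call, with the windows of separate starts of a gene laid over each other. Matches lie on both sides of the start, and Bst2 and Ifih1, the 2 members with a window that were higher in monocytes, hold one as do 10 members that were higher in neutrophils.

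Most of the 38 genes were higher in neutrophils. Of the 37 with enough counts to test, 25 were higher in neutrophils at an adjusted p under 0.05 in edgeR's quasi-likelihood test with Benjamini-Hochberg adjustment, and 4 (Ifih1, Zbp1, Bst2 and Mx1) were higher in monocytes. Over the 14309 genes tested, 21.8% were higher in neutrophils, 20.8% in monocytes and 42.6% in either. The median log2 fold change of the members, neutrophils over monocytes, was 1.03, with a range from -1.65 to 4.52, beside a median of 0.065 for all genes tested. Of the 25, 9 were at least 4-fold higher, 9 were between 2-fold and 4-fold higher and 7 were under 2-fold higher. CPM values of the 2 cell types did not overlap for 28 members higher in neutrophils and 5 higher in monocytes, which among all genes tested was so for 39.9% and 35.2%. Summed over the 38 genes, the level was 1653 and 1668 CPM in the monocyte libraries and 3699 and 3639 CPM in the neutrophil libraries.

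The role groups differed in how far they moved. The 2-5A synthetases had the highest median log2 fold change (3.69, 4 of 5 higher in neutrophils), followed by the antiviral effectors (1.48, 10 of 11 tested higher in neutrophils and 1 in monocytes). The sensors were mixed, with 3 higher in neutrophils and 2 in monocytes and a median of 0.58. The ISG15, ubiquitin and ADP-ribose enzymes had a median of 0.51 with 5 of 8 higher in neutrophils, and the GTPases a median of 0.45 with 2 of 5 higher in neutrophils and 1 in monocytes. The 3 nuclear and signalling partners had a median of -0.10, with 1 higher in neutrophils. Differences between groups of genes were not tested.

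**Figure D2:**
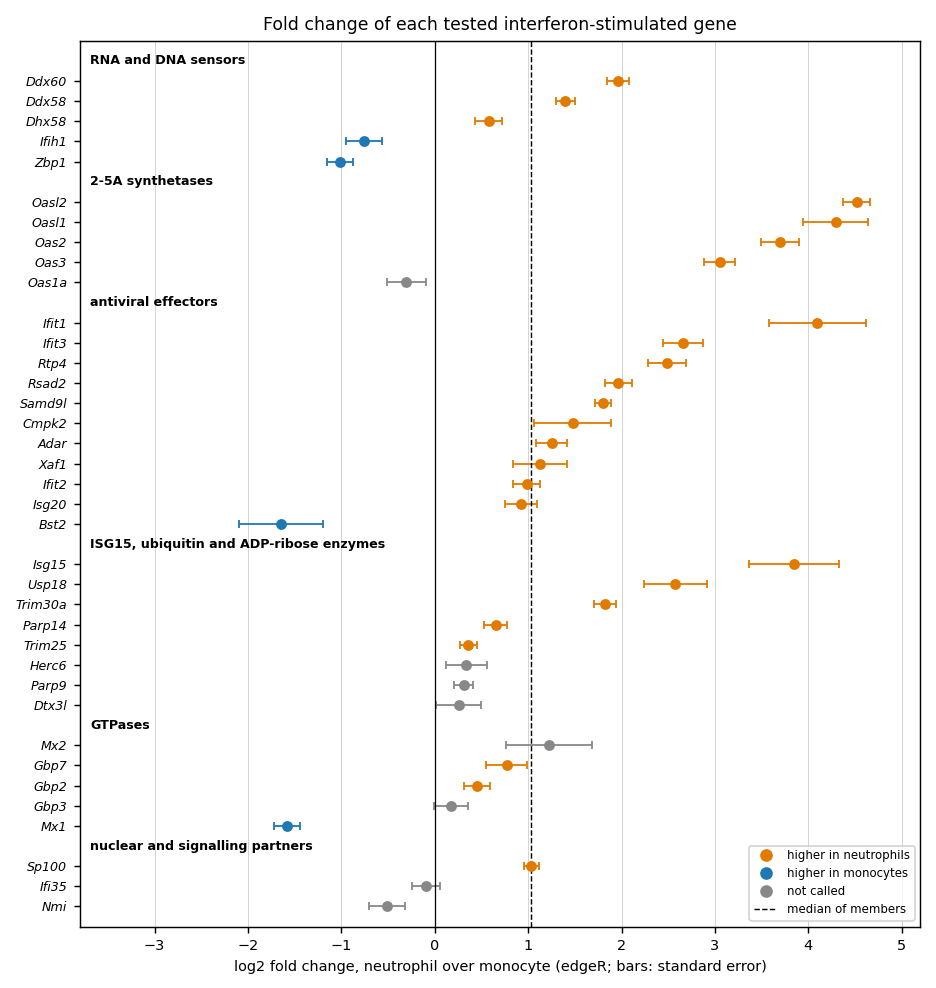
The log2 fold change (horizontal axis, neutrophil over monocyte, edgeR) of the 37 members tested, by role group, with bars of 1 standard error and the median of the members as a dashed line. Oasl2, Oasl1 and Ifit1 lie past 4 to the right, and Bst2, Mx1, Zbp1 and Ifih1 are the 4 called members to the left of 0.

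The sensors went in both directions. Ddx60, a helicase that aids RNA sensing, was at 21.6 and 23.4 CPM in the monocyte libraries and at 89.7 and 85.9 CPM in the neutrophil libraries. Both neutrophil libraries were above both monocyte libraries, and the log2 fold change was 1.97 ± 0.12 (SE, edgeR adjusted p = 0.000182). Ddx58 (RIG-I), the sensor of RNA ends that carry a triphosphate, was at 71.4 and 61.6 CPM in monocytes and 177 and 173 CPM in neutrophils, a log2 fold change of 1.40 ± 0.11 (edgeR adjusted p = 0.000367). Ifih1 (MDA5), the sensor of long double-stranded RNA, went the other way. It was at 62.2 and 88.7 CPM in monocytes and 42.9 and 46.4 CPM in neutrophils, and its log2 fold change was -0.76 ± 0.19 (edgeR adjusted p = 0.0257). The monocyte libraries did not overlap the neutrophil libraries for Ifih1 but differed from each other by more than the gap between the groups. Without neutrophil replicate 1, Ifih1 kept its direction (-0.68) but lost the call (edgeR adjusted p = 0.0697), as it did with effective lengths as an offset (adjusted p = 0.155) and in limma on TPM (adjusted p = 0.142 and 0.145). Dhx58 (LGP2), a helicase of the same family that lacks the signalling domains, was at 19.8 and 20.4 CPM against 29.0 and 30.9 CPM, a log2 fold change of 0.58 ± 0.15 (edgeR adjusted p = 0.0245) that lost the call without neutrophil replicate 1 (adjusted p = 0.157) and without neutrophil replicate 2 (adjusted p = 0.25). Zbp1, which binds left-handed nucleic acid and can trigger cell death, was at 39.9 and 38.5 CPM in monocytes and 18.8 and 19.9 CPM in neutrophils. Its log2 fold change was -1.02 ± 0.14 (edgeR adjusted p = 0.00281), with both pairs of libraries close together.

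RIG-I and MDA5 can also be set against each other within a library. Per length, in TPM (transcripts scaled for length and library), the ratio of Ddx58 to Ifih1 was 1.81 and 0.840 in the monocyte libraries and 5.33 and 5.45 in the neutrophil libraries. Ddx58 was the higher of the pair in 1 monocyte library and the lower in the other, and was several times higher in both neutrophil libraries.

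The OAS family, whose active members make the antiviral messenger 2-5A, held the largest differences. Oasl2 was at 7.79 and 9.83 CPM in monocytes and at 202.5 and 200.7 CPM in neutrophils, a log2 fold change of 4.52 ± 0.15 (edgeR adjusted p = 3.42e-05). Oasl1, which unlike its relatives does not make 2-5A, was at 0.844 and 1.45 CPM against 21.2 and 23.8 CPM, with 22 and 37 counts in the monocyte libraries. Its log2 fold change was 4.29 ± 0.35 (edgeR adjusted p = 0.000468). Oas2 was at 3.61 and 4.86 CPM in monocytes and 57.0 and 52.6 CPM in neutrophils (3.69 ± 0.20 on the log2 scale, edgeR adjusted p = 0.000138), and Oas3 at 17.1 and 12.7 CPM against 119 and 127 CPM (3.05 ± 0.17, edgeR adjusted p = 0.000147). In these 4 genes every neutrophil library was several times above every monocyte library. Oas1a, an active 2-5A synthetase, was the exception among the 5 members of the family listed here. Outside that list, its relatives Oas1c (log2 fold change 0.775, edgeR adjusted p = 0.0985) and Oas1g (0.732, edgeR adjusted p = 0.452) were not called either. Oas1b was called higher in neutrophils (2.449, edgeR adjusted p = 0.0187). Oas1a was at 20.1 and 27.5 CPM in monocytes and 18.3 and 20.2 CPM in neutrophils, and the ranges overlapped. Its log2 fold change of -0.31 ± 0.21 was not called (edgeR adjusted p = 0.294). Without monocyte replicate 1 it was called higher in monocytes (log2 fold change -0.50, edgeR adjusted p = 0.0153).

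Oas2, Oas3 and Oas1a lie on the minus strand of chromosome 5 (mm10), with Oas1c, Oas1b and Oas1g between Oas3 and Oas1a. Oas2 (120730333 to 120749853) ends 3.244 kb from Oas3 (120753098 to 120777661), and Oas1a (120896256 to 120907521) lies a further 118.6 kb on. Oasl2 and Oasl1 lie 11.01 kb apart elsewhere on the chromosome, and were 22.9-fold and 19.6-fold higher in neutrophils. Per length, the ratio of Oas3 to Oas1a was 0.318 and 0.175 in monocytes and 2.51 and 2.48 in neutrophils, and that of Oasl2 to Oas1a was 0.405 and 0.376 against 10.9 and 9.48. In monocytes Oas1a thus stood above both of these relatives, and in neutrophils below them.

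Among the antiviral effectors, the Ifit genes, whose products bind viral RNA that lacks the host cap, covered a wide range. Ifit1 was at 0.959 and 3.21 CPM in the monocyte libraries and 34.8 and 36.6 CPM in the neutrophil libraries. Its log2 fold change of 4.10 ± 0.52 (edgeR adjusted p = 0.00226) came with the widest spread between the monocyte libraries among all members (1.65 on the log2 scale), and it was 3.49 without monocyte replicate 1 and 5.23 without monocyte replicate 2. Ifit3 was at 11.9 and 8.15 CPM against 63.8 and 62.7 CPM, a log2 fold change of 2.66 ± 0.21 (edgeR adjusted p = 0.000437). Ifit2 was at 20.9 and 21.3 CPM against 38.6 and 44.7 CPM, a log2 fold change of 0.98 ± 0.15 (edgeR adjusted p = 0.00422). The 3 genes lie on chromosome 19, with Ifit2 and Ifit3 7.111 kb and Ifit3 and Ifit1 52.14 kb apart. Ifit1bl1, Ifit3b and Ifit1bl2 lie between Ifit3 and Ifit1. Per length, Ifit1 was at 0.0509 and 0.220 times the level of Ifit2 in monocytes and at 1.29 and 1.17 times in neutrophils.

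Other effectors were higher in neutrophils by smaller folds. Samd9l, which restricts poxviruses and slows translation, had the highest counts of the list: 212 and 232 CPM in monocytes and 770.1 and 769.8 CPM in neutrophils, a log2 fold change of 1.80 ± 0.09 (edgeR adjusted p = 8.93e-05). Rsad2 (viperin), which makes a chain-terminating nucleotide, was at 34.1 and 43.3 CPM against 155.5 and 146.5 CPM, and Cmpk2, the nucleotide kinase encoded 12.75 kb from it on chromosome 12, at 22.6 and 8.97 CPM against 46.3 and 41.5 CPM. Both were higher in neutrophils, Rsad2 by 1.97 ± 0.14 and Cmpk2 by 1.48 ± 0.41 on the log2 scale (edgeR adjusted p = 0.00033 and 0.0341). The 2 monocyte libraries differed for Cmpk2, whose log2 fold change was 2.30 without monocyte replicate 1 and 0.98 without monocyte replicate 2. Rtp4, Adar, Xaf1 and Isg20 completed the effectors that were higher in neutrophils, with log2 fold changes of 2.49, 1.25, 1.13 and 0.92. Adar, which edits adenosine to inosine in double-stranded RNA, was at 49.5 and 67.6 CPM against 138 and 139.9 CPM. The call was lost for Xaf1 without neutrophil replicate 1 (edgeR adjusted p = 0.0603) or neutrophil replicate 2 (adjusted p = 0.142), and its log2 fold change was 0.52 with effective lengths as an offset and 0.35 and 0.45 in limma on TPM, also with no call. Isg20, a 3'-5' exonuclease, lost its call without neutrophil replicate 2 (adjusted p = 0.101).

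Bst2 was the only effector tested that was higher in monocytes. Its level was 8.63 and 8.81 CPM in the monocyte libraries and 1.85 and 3.70 CPM in the neutrophil libraries, from 225 counts in each monocyte library and 40 and 76 in the neutrophil libraries. The log2 fold change was -1.65 ± 0.45 (edgeR adjusted p = 0.0316), and without neutrophil replicate 1, the lower of the pair, it was -1.21 with no call (adjusted p = 0.192). The 2 neutrophil libraries differed more for Bst2 than for any other member tested, by 0.96 on the log2 scale. Ifi44 was not tested, since the monocyte libraries held 1 and 0 reads of it and the neutrophil libraries 1 and 21. All but the neutrophil replicate 2 value (1.02 CPM) lay under the 3 counts taken as the limit of detection.

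Isg15 and Usp18 had the largest folds of the ISG15, ubiquitin and ADP-ribose enzymes, at low counts. Isg15, the ubiquitin-like modifier, was at 0.614 and 0.509 CPM in monocytes (16 and 13 counts) and at 6.93 and 9.34 CPM in neutrophils (150 and 192 counts). Its log2 fold change was 3.85 ± 0.48 (edgeR adjusted p = 0.00212). Usp18, the protease that removes ISG15 and damps the type I receptor, was at 1.76 and 1.88 CPM against 11.6 and 10.2 CPM, a log2 fold change of 2.58 ± 0.34 (edgeR adjusted p = 0.00245). Both genes were low in both monocyte libraries. Herc6, the main ISG15 ligase of the mouse, was at 23.2 and 34.5 CPM against 36.5 CPM in both neutrophil libraries, and its log2 fold change of 0.34 ± 0.22 was not called (edgeR adjusted p = 0.261). Without monocyte replicate 2 it was called higher in neutrophils (0.68, edgeR adjusted p = 0.00224).

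Trim30a, a ubiquitin ligase that restrains inflammatory signalling, was at 92.2 and 75.5 CPM in monocytes and 297.5 and 294.6 CPM in neutrophils, a log2 fold change of 1.82 ± 0.12 (edgeR adjusted p = 0.000215). Trim25, the ligase linked to RIG-I signalling, differed far less, with 140.7 and 132 CPM against 184.5 and 165 CPM. Its log2 fold change was 0.36 ± 0.09 (edgeR adjusted p = 0.0277), and the call was lost without neutrophil replicate 1 (adjusted p = 0.272) or neutrophil replicate 2 (adjusted p = 0.0607). Of the ADP-ribose genes, Parp14 was called (0.65 ± 0.12 on the log2 scale, edgeR adjusted p = 0.00931), with 157 and 126 CPM in monocytes and 230.0 and 215 CPM in neutrophils. Parp9 was at 84.9 and 76.1 CPM against 100.0 and 99.3 CPM, and it missed the threshold (0.31 ± 0.10, edgeR adjusted p = 0.0538) but passed it without monocyte replicate 1 (adjusted p = 0.00786) and without monocyte replicate 2 (adjusted p = 0.043). Its partner Dtx3l, with which it forms an E3 ligase complex, was at 104.7 and 63.9 CPM against 109.8 and 91.2 CPM. The ranges overlapped, and the log2 fold change of 0.26 ± 0.24 was not called (edgeR adjusted p = 0.442). It was 0.67 and called without monocyte replicate 1 (adjusted p = 0.0012), and -0.04 without monocyte replicate 2. Dtx3l and Parp9 lie on opposite strands of chromosome 16 and overlap by 682 bases, and since the sources used here do not give the strand setting of the counting, reads from the overlap cannot be told apart. Per length, the ratio of Dtx3l to Parp9 was 0.565 and 0.413 in monocytes and 0.565 and 0.457 in neutrophils.

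**Figure D3:**
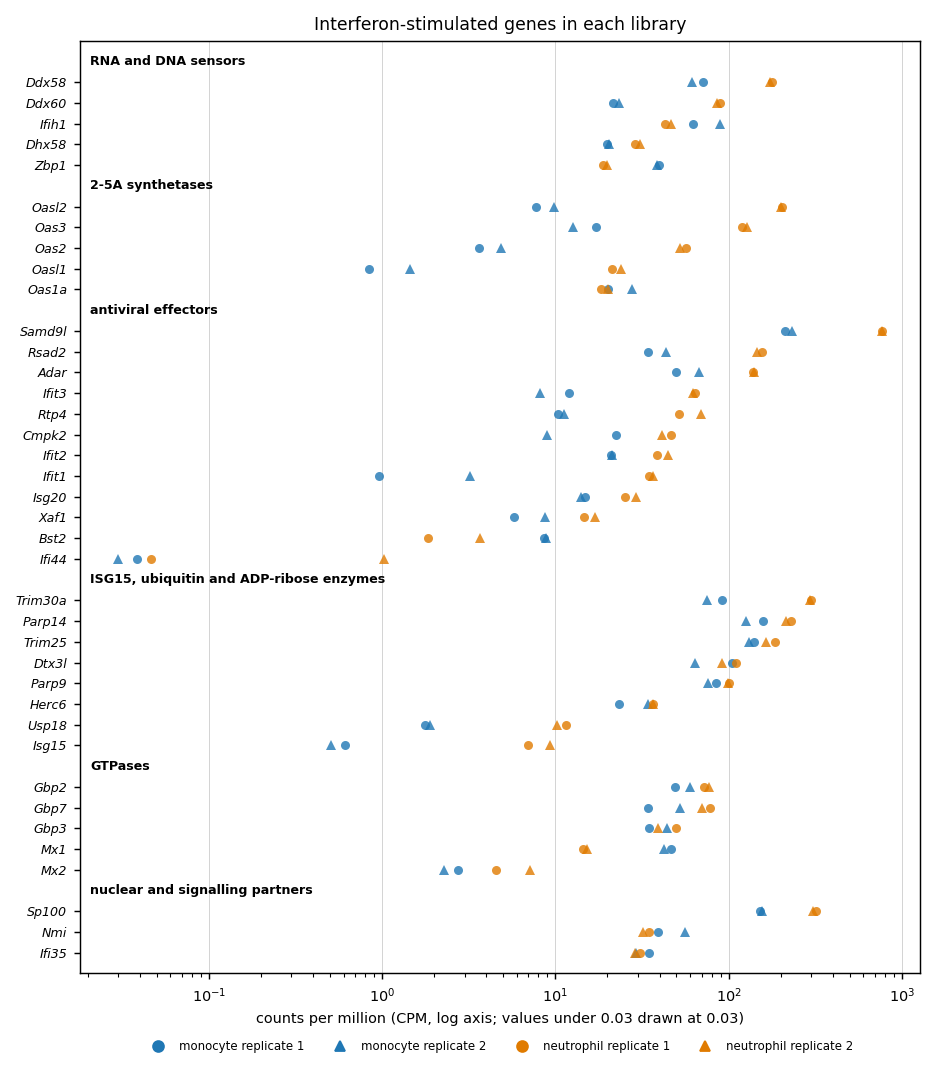
Level of each of the 38 members in each library (horizontal log axis, CPM), by role group, with monocytes in blue, neutrophils in orange, circles for replicate 1 and triangles for replicate 2, and values under 0.03 drawn at 0.03. Neutrophil points lie to the right for most genes, Ifih1, Zbp1, Bst2 and Mx1 show the reverse, and the pairs of neutrophil points lie closer together than the pairs of monocyte points for many genes.

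The GTPases were divided. Mx1 and Mx2 are dynamin-like GTPases that block viral ribonucleoproteins, the Mx1 allele of C57BL6 mice is known to be defective, and the annotation lists Mx2 as a polymorphic pseudogene. Mx1 was at 46.4 and 42.5 CPM in monocytes and 14.5 and 15.2 CPM in neutrophils, with both monocyte libraries well above both neutrophil libraries. The log2 fold change was -1.58 ± 0.14 (edgeR adjusted p = 0.000676). Mx2, encoded 72.4 kb away on the other strand of chromosome 16, was at 2.76 and 2.27 CPM against 4.58 and 7.15 CPM. Its log2 fold change of 1.22 ± 0.46 was not called (edgeR adjusted p = 0.0839), and it lay between 0.88 and 1.53 with 1 library left out. In TPM, Mx2 was at 0.54 and 0.59 in monocytes and 0.45 and 0.75 in neutrophils, so per length the ranges overlapped. Per length, Mx1 stood at 11.5 and 5.73 times Mx2 in monocytes and at 3.29 and 1.91 times in neutrophils, so Mx1 was the higher of the pair in all 4 libraries.

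The guanylate-binding proteins attack the membranes of vacuoles that hold microbes. Gbp7 was at 34.2 and 52.6 CPM in monocytes and 77.8 and 70.0 CPM in neutrophils (0.77 ± 0.22 on the log2 scale, edgeR adjusted p = 0.0361), and Gbp2 at 49.4 and 59.9 CPM against 72.5 and 76.9 CPM (0.45 ± 0.14, edgeR adjusted p = 0.0431). Both calls were lost without neutrophil replicate 1, with adjusted p of 0.0683 for Gbp7 and 0.128 for Gbp2, and that of Gbp2 also without neutrophil replicate 2 (adjusted p = 0.223). Gbp3, which lies between them on chromosome 3, was at 34.7 and 44.0 CPM against 49.6 and 39.2 CPM, with overlapping ranges and no call (0.17 ± 0.18, edgeR adjusted p = 0.496).

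Sp100, a scaffold of nuclear bodies, was the only called gene among the nuclear and signalling partners. It was at 151 and 155 CPM in monocytes and 321 and 306 CPM in neutrophils, a log2 fold change of 1.03 ± 0.08 (edgeR adjusted p = 0.000369). Nmi and Ifi35 bind each other in the cytoplasm. Ifi35 was at 34.7 and 29.1 CPM against 30.8 and 28.8 CPM, with overlapping ranges and a log2 fold change of -0.10 ± 0.15 (edgeR adjusted p = 0.653). Without monocyte replicate 1 its sign turned (0.05), again with no call. Nmi was at 39.3 and 55.7 CPM against 34.5 and 32.2 CPM, and its log2 fold change of -0.51 ± 0.20 missed the threshold (edgeR adjusted p = 0.0887) but was called higher in monocytes without monocyte replicate 1 (-0.73, adjusted p = 0.000608). The 2 genes of the pair therefore gave no call in the fit of all 4 libraries, while Sp100 gave a 2.05-fold difference.

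Per length, the order of the members differed between the cell types. Sp100 was highest in both, at 23.1 ± 1.77 TPM (SD, n = 2) in monocytes and 45.9 ± 2.26 TPM in neutrophils. It was followed in monocytes by Nmi at 12.3 ± 3.73 TPM, Samd9l at 9.52 ± 0.0566 TPM and Zbp1 at 8.37 ± 1.03 TPM. Of these, Nmi and Samd9l lay within the SD of Nmi. In neutrophils the next were Samd9l at 32.5 ± 1.36 TPM, Oasl2 at 24.8 ± 1.75 TPM, Trim30a at 22.4 ± 0.495 TPM and Ddx58 at 13.1 ± 0.707 TPM, each apart from its neighbours by more than the sum of their SDs. Zbp1 took rank 4 of 38 in monocytes and rank 29 in neutrophils, Mx1 rank 10 and 35, and Oasl2 rank 28 and 3. The number of members at 1 TPM or more was 30 and 28 in the monocyte libraries and 35 and 36 in the neutrophil libraries, and at 10 TPM or more it was 1 and 2 against 5 and 6. The median member lay at 2.85 and 2.73 TPM in monocytes and 4.87 and 4.05 TPM in neutrophils, beside medians between 1.51 and 1.69 TPM over all genes tested.

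The libraries of a cell type differed about as much for these genes as for others in monocytes and less in neutrophils. The median absolute log2 ratio between the 2 monocyte libraries was 0.288 over the 37 members and 0.309 over all genes tested, and between the 2 neutrophil libraries 0.098 and 0.172. Of the 37 members, 15 were higher in monocyte replicate 1 and 20 in neutrophil replicate 1.

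The genes upstream of the members were listed as 36 ligands, receptors, kinases, transcription factors, inhibitors and adaptors, of which 30 were tested. Of these, 11 were higher in neutrophils and 6 in monocytes, beside 21.8% and 20.8% of all genes tested. Their median log2 fold change was 0.42, beside 0.065 for all genes tested. Ifnb1, Ifna1, Ifna2, Ifna4, Ifnl2 and Ifnl3, the type I and type III ligands listed, had no count in any library, which allows up to between 0.115 and 0.146 CPM (3 counts) and covers counting error only. Ifng, the type II ligand made by NK and T cells, was at 26.3 and 32.5 CPM in the monocyte libraries and 0.231 and 0.195 CPM in the neutrophil libraries, a log2 fold change of -7.07 ± 0.32 (edgeR adjusted p = 7.72e-05), and the NK cell markers given above were higher in the same libraries. Their part in the Ifng level was not tested.

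The receptor chains gave log2 fold changes of either sign. Ifnar2, the chain of the type I receptor that binds interferon tightly, was at 110.6 and 105 CPM in monocytes and 54.1 and 55.2 CPM in neutrophils (-0.98 ± 0.10 on the log2 scale, edgeR adjusted p = 0.000958). Its partner Ifnar1 was at 145.9 and 131 CPM against 193 and 185.0 CPM (0.45 ± 0.09, edgeR adjusted p = 0.0117), a call that was lost without neutrophil replicate 1 (adjusted p = 0.0798) and in limma on TPM (adjusted p = 0.108 and 0.114). Ifngr1, the ligand-binding chain of the interferon gamma receptor, was at 938 and 1071 CPM against 160.3 and 148 CPM (-2.70 ± 0.10, edgeR adjusted p = 4.56e-05), whereas Ifngr2 was at 70.5 and 60.3 CPM against 92.2 and 79.3 CPM and was not called (0.39 ± 0.13, edgeR adjusted p = 0.0578). Ifngr2 was called higher in neutrophils without monocyte replicate 1 (adjusted p = 0.00467) and without monocyte replicate 2 (adjusted p = 0.0421).

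Among the other listed genes of the pathway, 0 of 5 kinases were called by edgeR, with log2 fold changes between -0.35 and 0.74. Of 10 transcription factors 6 were higher in neutrophils and 2 in monocytes, beside 21.8% and 20.8% of all genes tested. Stat2 and Irf9 were among the 6, with Stat2 at 29.5 and 21.2 CPM against 60.6 and 59.8 CPM (1.25 ± 0.18, edgeR adjusted p = 0.00382) and Irf9 with a log2 fold change of 0.76 (edgeR adjusted p = 0.00247). Irf2, which competes with Irf1 at such elements, was at 50.2 and 48.6 CPM against 106 and 101 CPM (1.07 ± 0.10, edgeR adjusted p = 0.000717). Irf5 and Irf8 were the 2 higher in monocytes. Among 4 feedback inhibitors only Socs3 was called, at 76.2 and 72.4 CPM against 234 and 249 CPM (1.70 ± 0.09, edgeR adjusted p = 0.000125). Of 6 genes listed as adaptors, 3 were higher in neutrophils and 1 in monocytes. Mb21d1 (cGAS), the enzyme that senses DNA, was the 1 higher in monocytes, at 7.10 and 7.52 CPM against 2.68 and 3.26 CPM (-1.30 ± 0.37, edgeR adjusted p = 0.0354). That call was lost without neutrophil replicate 1 (-1.14, adjusted p = 0.274) and without neutrophil replicate 2 (-1.43, adjusted p = 0.165).

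**Figure D4:**
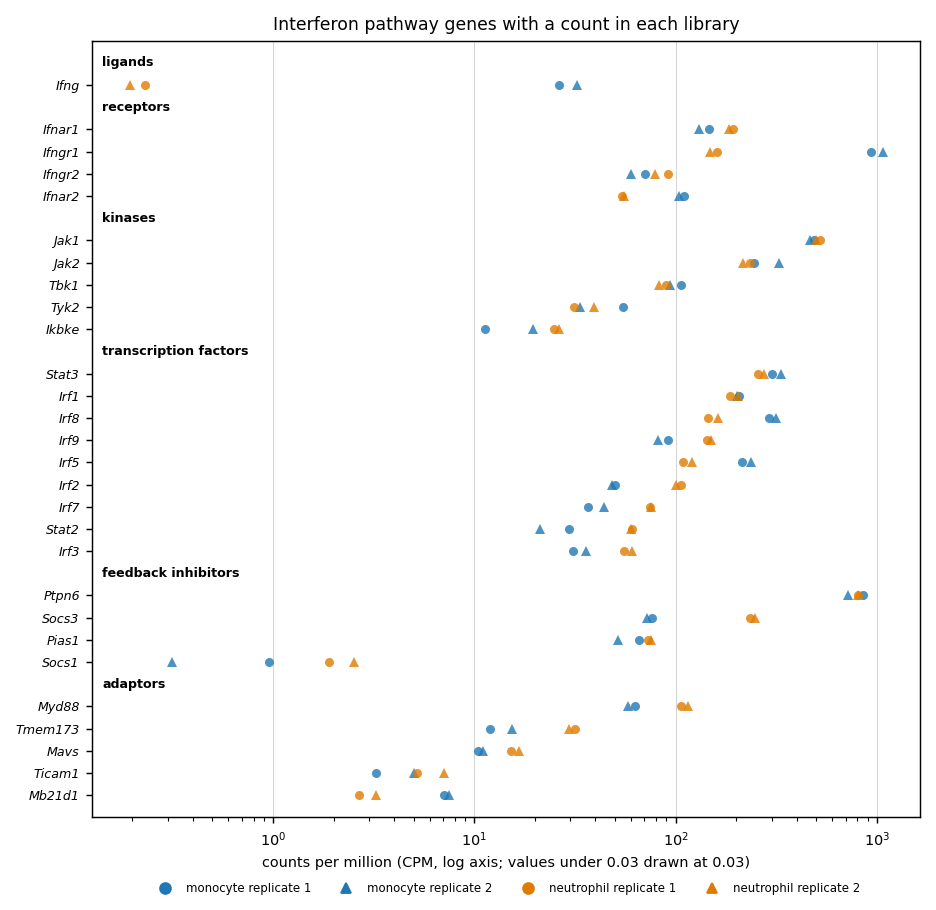
Level of 28 of the 30 interferon pathway genes with a count (the other 2 are not reported here) (horizontal log axis, CPM) in each library, by role, with monocytes in blue, neutrophils in orange, circles for replicate 1 and triangles for replicate 2. Ifng and Ifngr1 lie far to the right in the monocyte libraries (26.3 and 32.5, and 938 and 1071 CPM), while for the kinases, of which none was called, Ikbke lies apart (11.3 and 19.6 against 25.0 and 26.4 CPM) and Tyk2 overlaps between the cell types.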

How the data were processed

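The files hold gene tables of 2 monocyte and 2 neutrophil total RNA libraries (rRNA removed, ScriptSeq v2 kit). Per the labels and the study's methods, the authors aligned reads to mm10 with STAR and quantified Gencode M4 genes with RSEM in each library. The deposited values used were expected counts, posterior mean counts and TPM, with the effective length and the standard deviation of the read assignment. The members and all gene lists were chosen with earlier results of these data known.

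Names and positions were taken from GENCODE M21 (mm10), which matched 42462 of 43346 gene IDs; cGAS appears there as Cgas. Entries that name no gene held at most 0.0006% of the counts of a library and were left out. Expected counts were rounded and tested with edgeR 4.0.16 in R 4.3.3 (TMM factors, filterByExpr, quasi-likelihood F test, Benjamini-Hochberg adjustment over 14309 genes, threshold 0.05) on all 4 libraries. The procedure was also run on simulated counts with the same spread in every library. That spread was lower than in the monocyte pair (46.2%), so the simulation does not give the error of the test in these data. A standard error is the log2 fold change divided by the square root of F. Counts of 26076261 and 25538433 (monocytes) and 21634828 and 20549572 (neutrophils) lay in genes. The libraries of each pair differed by more than sampling noise (chi-square per degree of freedom 42.2 and 24.7). The largest coefficient of variation of the read assignment over members was 1.18% (Ifit3).

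Genes named with values were, for each role group, the highest and lowest fold change, all members called against the majority, all not tested, and further members for completeness; in the pathway, all receptors and, per role, the 2 called with the highest fold, with Irf9 added after its values were seen; and in the other interferon-induced genes, the 4 called with the largest fold change in each direction. Alternatives were DESeq2 1.42.0 size factors and its Wald test, scaling by library size only, keeping all genes, keeping those with 10 CPM in 2 libraries, limma 3.58.1 on log2(TPM + 1) and log2(TPM + 0.1), posterior mean counts, effective lengths as an offset, and each library left out. RefSeq promoter windows (GRCm38.p6) covered 27025 genes. Protein sequences were not used here, and some genes of the pathway list are counted but not reported here by name.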

Additional observations from a re-analysis of the deposited data

Results flagged for a closer look

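Entries that name no mouse gene held a few counts above the limit of 3 that a count of 0 allows. Spike-in control entries held 85 counts in monocyte replicate 1 and 16 in monocyte replicate 2, and none in the neutrophil libraries. Entries listed by number alone held 70 and 8 counts in the monocyte libraries and 37 and 46 in the neutrophil libraries. They were noted because they lie outside the measurement of genes, and they were left out of the totals and tests.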

How the results depend on the processing

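No paired analysis was possible because the replicate numbers follow only the order of deposit. The 25 and 4 calls of the members held, gene by gene, under DESeq2 size factors, library size alone, the DESeq2 test and posterior mean counts. With no filter Nmi was also called, giving 1 nuclear and signalling partner higher in monocytes, and a filter of 10 CPM left Bst2 untested, giving 0 effectors higher in monocytes. In limma on log2(TPM + 1), 7 member calls were lost and the folds of 9 called members moved by over 1.5 times, with 1801 genes higher in neutrophils, 1 sensor higher in monocytes, 0 GTPases higher in neutrophils and a member median of 0.718. On log2(TPM + 0.1) 8 were lost, with 1688 genes, 1 sensor, 0 GTPases and a median of 0.832, and with effective lengths 5 were lost, with 1 sensor, 1 GTPase and a median of 0.83. Ifih1, Dhx58, Xaf1, Trim25 and Gbp2 were lost in all 3, Ifit2 and Gbp7 in both limma fits and Cmpk2 in the second. The median of all genes was 0.065 by edgeR, -0.053 and -0.062 by limma and 0.324 with no filter. The replicate difference of the members on deposited TPM had a median of 0.133 in monocytes and 0.085 in neutrophils, against -0.047 and 0.003 on CPM.

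Leaving out each library in turn, where the lone library is assumed to vary like the other pair, gave 1810 to 4675 genes higher in neutrophils (1810 without neutrophil replicate 1, 1913 without neutrophil replicate 2, against 3118), 2 to 6 members and 1 to 2 sensors higher in monocytes, 0 to 1 effectors, 2-5A synthetases and nuclear partners higher in monocytes, 0 to 3 GTPases higher in neutrophils, and a member median of 0.89 to 1.178. Without neutrophil replicate 1 the members higher in monocytes were Zbp1 and Mx1. The log2 fold changes of Ifi35 (-0.198 to 0.051) and Dtx3l (-0.037 to 0.668) changed sign without monocyte replicate 1 and monocyte replicate 2, respectively. In each such fit the spread comes only from the pair left whole, and it was 46.2% for monocytes and 14.7% for neutrophils. For a call lost or gained there, the library left out and this change of spread cannot be told apart. The cause of the changes in sign and in calls was not tested. Over the settings, 251 of the summary values stayed within the spread or within 1.5 times, and 26 moved further. For single genes 653 values kept their direction and side of the threshold, 37 lost the call, 15 gained it and 2 changed sign. Depth limits Isg15 and Oasl1, which rest on 13 to 37 counts in the monocyte libraries, and Ifi44, which was not tested. It also limits Ifit1 (25 and 82 counts in the monocyte libraries) and Usp18 (46 and 48 counts).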

Other observations

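A wider list held 55 other interferon-induced genes, some of them relatives of the members. It too was chosen with earlier results of these data known, so it is not an independent check of the members. Of 51 tested, 28 were higher in neutrophils and 7 in monocytes by edgeR, with a median log2 fold change of 0.75, beside 21.8% and 20.8% of all genes. Among them, relatives of the members (further Ifit, Oas, Gbp and Trim30 genes) gave 8 of 13 higher in neutrophils and 1 in monocytes, with a median of 2.45. Ifit3b, a near copy of Ifit3, was at 2.22 and 0.822 CPM in monocytes and 32.9 and 36.5 CPM in neutrophils (4.51 ± 0.44 on the log2 scale, edgeR adjusted p = 0.000913). Without monocyte replicate 1 its log2 fold change was 5.41, and without monocyte replicate 2 it was 3.98. Trim30b, a relative of Trim30a encoded on the same chromosome, was at 35.7 and 39.7 CPM against 489 and 464 CPM (3.66 ± 0.10, edgeR adjusted p = 2.52e-05). Ifit1bl2 and Ifit1bl1 had log2 fold changes of 3.67 and 3.14, the latter 2.47 without monocyte replicate 1 and 4.50 without monocyte replicate 2.

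The 4 called genes of this list with the largest folds towards monocytes were Phf11d, Fcgr1, Epsti1 and Phf11b. Phf11d was at 19.3 and 18.1 CPM in monocytes and 3.79 and 1.61 CPM in neutrophils (-2.79 ± 0.43, edgeR adjusted p = 0.00468), with a log2 fold change of -3.51 without neutrophil replicate 1 and -2.28 without neutrophil replicate 2. Fcgr1, the high-affinity IgG receptor, was at 13.8 and 12.6 CPM against 3.37 and 4.67 CPM (-1.71 ± 0.31, edgeR adjusted p = 0.00787). Epsti1 was at 253 and 244 CPM against 81.2 and 85.5 CPM (-1.57 ± 0.09, edgeR adjusted p = 0.000136), and Phf11b had a log2 fold change of -1.22. In the family of interferon-inducible DNA-binding proteins on chromosome 1, named after the values were seen, Ifi203 and Mndal were higher in neutrophils (1.56 and 1.57), Ifi204 was higher in monocytes (-0.82) and Aim2 was not called (0.02).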
